A study of Mus musculus with 10 samples.

Results

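Complement is a set of plasma and cell surface proteins that marks targets for uptake or lysis. The 9 genes described here, C2, C3, C4b, C1ra, C1s1, Cfd, Cfp, Cd55 and Masp1, were chosen by name as complement components and regulators, out of 54232 genes in the deposited table. The rule itself used no measured value. RNA was sequenced from gastrocnemius muscle, a calf muscle made mostly of fast fibers, of 5 homozygous desmin knock-out mice (genotype label Des -/-) and 5 wild-type mice (Des wt/wt). The study's methods name this muscle alone, while its figure legend and discussion also name the plantaris muscle. All mice were 3 months old and carried 1 strain label, which joins B6J, 129Sv and Destm1Cba/Cscl, and the study's methods call the wild-type mice littermates. The Des allele is a germline one, so every cell type of the muscle lacks desmin, the intermediate filament protein of muscle, and not the fibers alone. The methods speak of pooled RNA, but the table gives every mouse its own column, and a column counted as 1 replicate.

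Complement starts in 3 ways. In the classical pathway, C1q bound to a surface activates the proteases C1r and C1s, which cut C4 and C2. In the lectin pathway, sugar-binding lectins and MASP proteases do the same, and in the alternative pathway factor D cuts factor B bound to C3b, while properdin stabilises the resulting enzyme. All ways meet at the C3 convertase, which splits C3, and surface proteins such as CD55 take this enzyme apart on the body's own cells. The liver supplies most plasma complement, but fibroblasts, macrophages and adipocytes make several components locally, and factor D is known as adipsin because fat cells secrete it.

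The deposited values are regularized log (rlog) values. This is a log2 scale that corrects for library size and pulls each gene towards its own mean, so differences on it understate log2 fold changes of counts, and depth is unknown. The limma test took 14289 genes, those whose mean reached log2(10), and all 9 genes were among them. Des itself stood at 16.58 ± 0.67 in wild-type mice and at 11.84 ± 0.06 in knock-out mice (SD, n = 5 each), with no overlap. All 10 mice carried Y-linked transcripts (mean of Ddx3y, Eif2s3y, Kdm5d and Uty between 9.52 and 10.62), and Xist was below 0.77 in each of them. Wild-type mouse 3 stood apart from its group, with a mean correlation of 0.982 to the other wild-type mice compared with 0.989 to 0.991 for those. For the 9 genes, log2 differences that it moves by over 1.5 times are also given without it. Differences of cell type markers and inducers are given with all 10 mice only, and some of them may rest on this mouse. The skeletal muscle markers Acta1, Ckm and Myh4 had mean values of 20.08, 19.78 and 20.23, and such fiber genes are the defining markers of this tissue.

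Of the 9 genes, 1 was lower and none was higher in desmin knock-out muscle at an adjusted p under 0.05 (limma). Over all tested genes, 5.99% were lower and 7.7% were higher by the same criterion, 13.7% in either direction. At an unadjusted p under 0.05 there were 2 lower genes, C3 and Cfp, and 0 higher ones. The median log2 difference of the 9 genes was 0.09, compared with -0.0029 for all tested genes, and 6 had a higher and 3 a lower mean in knock-out mice. In whole muscle, fewer cells of a type and less RNA per cell cannot be told apart. The plot of the values by mouse shows that the genotypes overlapped in all of them but C3.

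**Figure D1:**
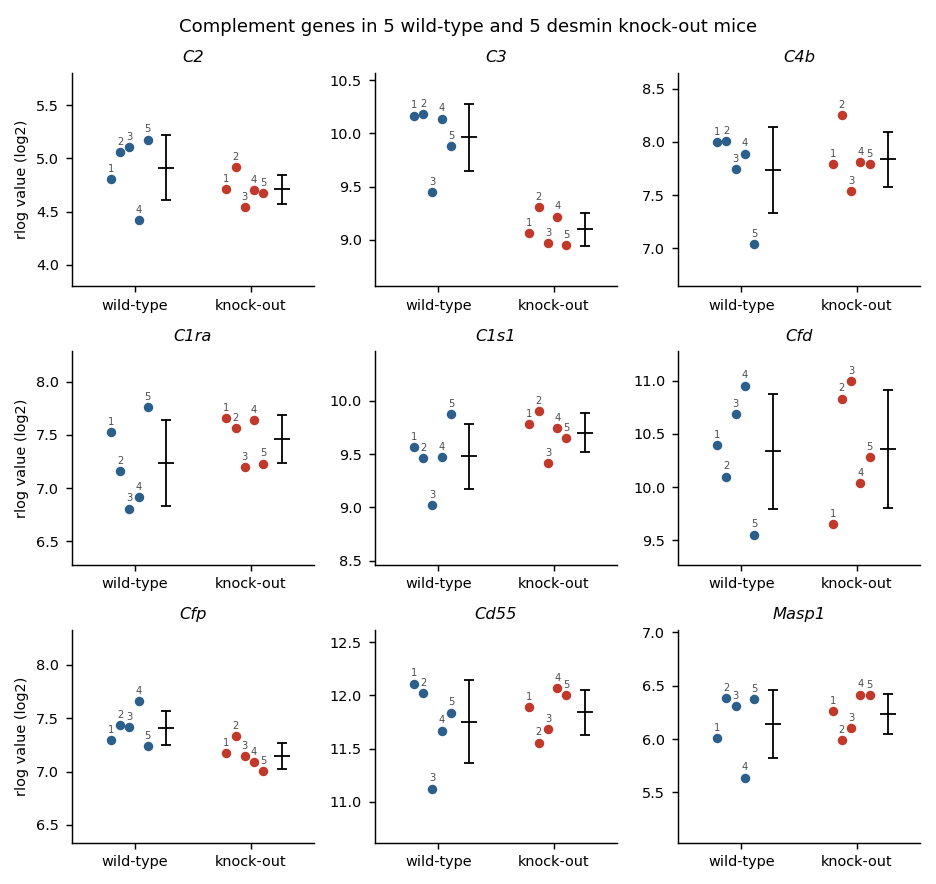
Deposited rlog value (log2 scale, vertical axis, 2 units high in every panel) of each complement gene in 5 wild-type (blue) and 5 desmin knock-out mice (red). Numbers are mouse numbers, which have no order, and the black bars give mean ± SD. Only for C3 do all 5 knock-out mice, between 8.95 and 9.31, lie below all wild-type mice, between 9.45 and 10.18.

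C3 encodes the central component, whose cleavage product coats targets for phagocytes. The gene (ENSMUSG00000024164) is on chromosome 17 (GRCm38, 57203970 to 57228136, reverse strand). Its rlog values were 10.17, 10.18, 9.45, 10.14 and 9.88 in wild-type mice 1 to 5. In desmin knock-out mice 1 to 5 they were 9.06, 9.31, 8.97, 9.22 and 8.95. The highest knock-out value lay under the lowest wild-type value, that of wild-type mouse 3. The log2 difference was -0.86 (standard error, SE, 0.14, 95% interval -1.17 to -0.56), with an adjusted p of 0.00109 (limma). An exact two-sided permutation test of the 10 values gave p = 0.00794, which is the minimum for groups of 5. Groups without overlap were found for 14.4% of all tested genes, with the knock-out mice below in 6.97%. C3 kept an adjusted p under 0.05 in all 18 alternatives with a fit of this gene, over a range from 5e-07 to 0.00541. Without wild-type mouse 3 the log2 difference was -0.99 (SE 0.10, limma adjusted p of 1.5e-05).

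C3 was also set against the other complement genes of the same mouse, which takes out the scaling between mice. The C3 value minus the mean of the other 8 genes ranged from 0.819 to 1.03 in desmin knock-out mice and from 1.42 to 2.06 in wild-type mice. Against each of the 8 genes taken singly, the genotypes did not overlap for 4, namely C4b, C1ra, C1s1 and Cd55. Compared with C1s1, C3 was the higher of the pair in every wild-type mouse, by 0.0072 to 0.71, and the lower in every knock-out mouse, by a difference between -0.72 and -0.45. These values are without length scaling, so their change between genotypes can be read but their sign cannot. They are a description, since C3 had already been singled out.

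The 3 tested genes whose profile over the 10 mice was most like that of C3 were Ankrd44, Sik2 and Gm35330. Likeness was taken as the root mean square (RMS) difference of values centred on each gene's mean, which was 0.143, 0.153 and 0.165. C3 itself varied about its mean with an RMS of 0.484. The log2 differences of these genes were -0.93, -0.74 and -0.75. Centring over all 10 mice kept the genotype difference, so their negative sign follows from how they were chosen. None of the 3 is a complement gene.

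Close before its start site, C3 carries a match to a binding motif of the C/EBP factors, which are known to drive acute-phase genes. Start-site windows from RefSeq (GRCm38.p6) were found for 6 of the 9 genes, C3, C1ra, C1s1, Cfd, Cfp and Cd55, and not for C2, C4b and Masp1. The 250 bases before the start were searched on both strands for the STAT letters TTCNNNGAA, the C/EBP letters TTGCNNAA, the TATA box letters TATAAA, an NF-kB motif and an interferon response element. No match overlapped another one. Of 32851 windows of the same length, 7.02% held the STAT letters, 1.41% those of NF-kB, 9.56% those of C/EBP, 2.98% those of the interferon element and 12.4% those of TATA. Among the 6 genes, 2 matches were found, both to C/EBP: bases -45 to -38 of C3, on the gene's strand, and bases -242 to -235 of C1s1, on the opposite strand. The windows are shown for the gene that changed and for the other gene with a match, 5′ to 3′ on the gene's strand, with the match in capitals. The C3 window is chr17:57228137-57228386 on the reverse strand, and the C1s1 window is chr6:124542360-124542609 on the reverse strand.
C3: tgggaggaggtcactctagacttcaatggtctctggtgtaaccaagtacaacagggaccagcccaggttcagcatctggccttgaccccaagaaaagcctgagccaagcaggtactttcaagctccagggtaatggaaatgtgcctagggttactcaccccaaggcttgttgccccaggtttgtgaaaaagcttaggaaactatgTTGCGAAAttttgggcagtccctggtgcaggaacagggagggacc
C1s1: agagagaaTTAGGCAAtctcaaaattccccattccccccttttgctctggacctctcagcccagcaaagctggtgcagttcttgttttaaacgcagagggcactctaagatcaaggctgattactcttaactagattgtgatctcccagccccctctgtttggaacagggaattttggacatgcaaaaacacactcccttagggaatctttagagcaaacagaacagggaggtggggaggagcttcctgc
The match is the same kind of letters in a gene that fell and in one that did not pass the test, and binding was not measured.

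The partners of C3 in the convertases did not pass the test. C4b (ENSMUSG00000073418, chromosome 17, 34728380 to 34743882) encodes C4, whose larger fragment anchors the classical and lectin convertase. Its values were 8.0, 8.01, 7.74, 7.89 and 7.04 in wild-type mice 1 to 5. In desmin knock-out mice they were 7.79, 8.25, 7.54, 7.81 and 7.79. Wild-type mouse 5 was far below all other mice, and the remaining 9 overlapped. The log2 difference of C4b was 0.10 (95% interval -0.30 to 0.50, limma adjusted p of 0.76), and without wild-type mouse 5 it was -0.07. C2 (ENSMUSG00000024371, chromosome 17, 34862604 to 34898265), the protease of the same convertase, ranged from 4.42 to 5.17 in wild-type and from 4.54 to 4.92 in knock-out mice. Its log2 difference was -0.20 (95% interval -0.52 to 0.12, limma adjusted p of 0.403). Both genes lie on chromosome 17, as does C3.

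Reads of C4b and C2 are not all unique to them. Of the 50-base windows of the longest C4b coding transcript, 35.2% also occur in C4a, a copy of the gene, whose mean was 3.04 and thus under the limit for testing. For C2, 58% of the windows also occur in Gm20547, an annotated gene on the same strand that spans C2 and its neighbour Cfb, the gene of factor B. Gm20547 had the value 0 in all 10 mice, and Cfb, with 81.4% of its windows shared, had a mean of -1.33. How reads that fall on 2 genes were counted is not given in the sources used here, and the level of C2 is uncertain for this reason, as is that of Cfb. C2 also overlaps Zbtb12, which had a mean of 7.43, on the opposite strand, and Masp1 overlaps Rtp4 there by 525 bases. C3, Cfd, Cfp and Masp1 shared less than 1% of their windows with any other gene.

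C1ra and C1s1 encode the proteases C1r and C1s of the C1 complex, which start the classical cascade. C1ra (ENSMUSG00000055172, chromosome 6, 124512405 to 124523443) and C1s1 (ENSMUSG00000038521, chromosome 6, 124530345 to 124542359) are neighbours that point towards each other. C1s1 had the values 9.57, 9.47, 9.02, 9.47 and 9.87 in wild-type mice 1 to 5. In desmin knock-out mice 1 to 5 it had 9.78, 9.91, 9.42, 9.75 and 9.65. The genotypes overlapped, and 4 of 5 knock-out mice lay above the wild-type median. The log2 difference was 0.22 (95% interval -0.09 to 0.53, limma adjusted p of 0.344). C1ra ranged from 6.81 to 7.76 in wild-type and from 7.2 to 7.66 in knock-out mice. Its log2 difference was likewise 0.22 (95% interval -0.16 to 0.61, limma adjusted p of 0.45). Without wild-type mouse 3, the lowest mouse for both, the log2 difference was 0.106 for C1s1 and 0.118 for C1ra, and with a Y-linked covariate it was 0.122 and 0.083. The means of both were higher in knock-out mice under all 18 alternatives, but neither passed in any of them. Both genes have copies. C1rb, with which C1ra shares 48% of its windows, had the value 0 in all mice, and C1s2, with which C1s1 shares 24.3%, had a mean of 1.33. How shared reads were counted bears on these values too.

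The profiles of C1ra and C1s1 over the 10 mice were the most alike of all pairs of the 9 genes, with an RMS difference of 0.153 between their centred values. In both genes wild-type mouse 3 was the lowest and wild-type mouse 5 the highest of the wild-type mice, and knock-out mouse 3 was the lowest of the knock-out mice. After centring within each genotype, both were nearer to the mean of 10 fibro-adipogenic progenitor and fibroblast markers than to the mean of any of the other 6 marker lists. This RMS difference was 0.114 for C1s1 and 0.144 for C1ra, where the genes themselves varied with 0.225 and 0.292. The other 7 genes lay at 0.234 or more from the fibroblast list. C3 was nearest to the macrophage and monocyte list, at 0.167 where it varied with 0.222. So was Cd55, at 0.207 where it varied with 0.281, and C1s1 lay nearer to that list than either. Masp1 (ENSMUSG00000022887, chromosome 16, 23449417 to 23520815), which encodes the related protease of the lectin pathway, ranged from 5.64 to 6.38 in wild-type and from 5.99 to 6.42 in knock-out mice. Its log2 difference was 0.09 (95% interval -0.24 to 0.43, limma adjusted p of 0.73).

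The activators of the alternative pathway did not pass either. Cfd (ENSMUSG00000061780, chromosome 10, 79890853 to 79892655) encodes factor D. Its values were 10.40, 10.10, 10.68, 10.95 and 9.55 in wild-type mice 1 to 5. In desmin knock-out mice 1 to 5 they were 9.66, 10.83, 10.99, 10.04 and 10.28. Each genotype spanned more than 1 log2 unit and the ranges nearly coincided. The log2 difference of 0.023 had the widest 95% interval of the 9 genes, from -0.57 to 0.62 (limma adjusted p of 0.968), and without wild-type mouse 3 it was 0.109. The SD of Cfd was 0.54 in wild-type and 0.55 in knock-out mice, the largest of the 9 genes in each genotype.

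After centring within each genotype, the tested gene nearest to Cfd was Cidec, which encodes a lipid droplet protein, with an RMS difference of 0.111, and the next was Retn, the resistin gene, with 0.161. Cfd itself varied with an RMS of 0.490. Both belong to the list of 10 adipocyte markers, and they are named here after their values were seen. Adipoq, the adiponectin gene, was 18th with 0.292, Scd1 was 64th with 0.322 and Plin1 was 276th with 0.361. The other 5 markers of the list were not near Cfd, with 0.463 for Lep, 0.530 for Fabp4, 0.547 for Plin4, 0.597 for Pparg and 0.611 for Lpl, so the likeness held for some members of the list and not for the list as a whole. The 10 adipocyte markers showed no gene past the test in either direction (limma, with 0 higher and 2 lower at an unadjusted p under 0.05). The summed adipocyte level was taken by adding the unlogged values and returning to log2. It ranged from 14.90 to 15.21 in knock-out and from 15.18 to 15.57 in wild-type mice. Most of this sum came from Lpl, Plin4 and Fabp4, whose means were 14.39, 12.75 and 12.63. Adipoq, Cidec and Retn, with means of 7.70, 6.95 and 6.67, weigh little in it. Their log2 differences, with all 10 mice, were -0.13, -0.12 and -0.02. Wild-type mouse 3 was the highest wild-type mouse for Adipoq (8.50) and Cidec (7.45), and it stood at 7.08 for Retn. The negative signs of these small differences may rest on that mouse, and whether they hold without it was not tested. Lpl, Plin4 and Lep had the smallest adjusted p values of this list, 0.0981, 0.138 and 0.493 (limma). The part of fat in the Cfd values was not tested. The plot of centred values sets Cfd beside Cidec, Retn and Adipoq in each mouse.

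**Figure D2:**
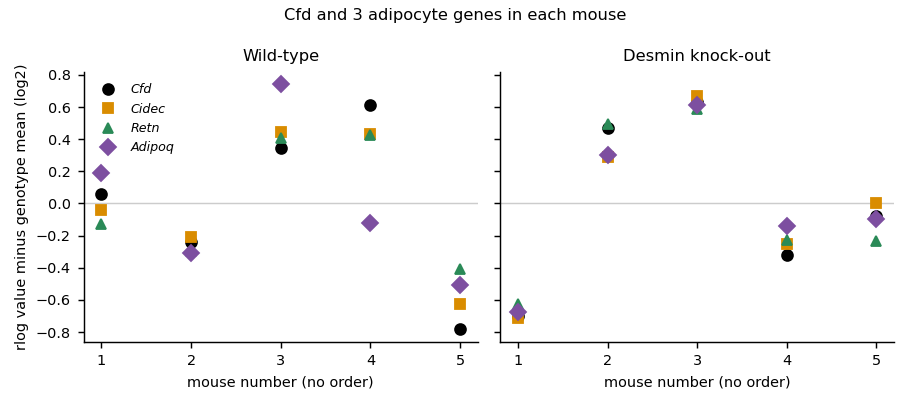
Rlog value of Cfd, Cidec, Retn and Adipoq in each mouse (horizontal axis, mouse number) after subtraction of the gene's mean in that genotype (vertical axis, log2). Cidec and Retn lie near Cfd in most mice, at an RMS difference of 0.111 and 0.161, and Adipoq lies at 0.292.

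Cfp (ENSMUSG00000001128, chromosome X, 20925454 to 20931555) encodes properdin, which myeloid cells release. Its values were 7.29, 7.44, 7.41, 7.66 and 7.24 in wild-type mice 1 to 5. In desmin knock-out mice 1 to 5 they were 7.17, 7.33, 7.15, 7.09 and 7.0. All but knock-out mouse 2 lay under the lowest wild-type mouse. The log2 difference of -0.26 (SE 0.11, 95% interval -0.50 to -0.02) had an unadjusted p of 0.0344 and an adjusted p of 0.144 (limma), so it did not pass over all genes. The exact two-sided permutation test gave p = 0.0238. With sample weights the adjusted p was 0.0267, and over all alternatives it ranged from 0.0267 to 0.296.

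Cd55 (ENSMUSG00000026399, chromosome 1, 130439027 to 130462744) encodes the decay-accelerating factor, which takes C3 convertases apart on the cell surface. It lies on the chromosome of Des. Wild-type mice 1 to 5 had 12.11, 12.02, 11.12, 11.67 and 11.84. Desmin knock-out mice 1 to 5 had 11.89, 11.56, 11.69, 12.07 and 12.00. Wild-type mouse 3 was the lowest of all mice, and the other 9 mixed. The log2 difference was 0.09 (95% interval -0.28 to 0.45, limma adjusted p of 0.772), and without wild-type mouse 3 it was -0.07. Its copy Cd55b, with which Cd55 shares 13.3% of its windows, had a mean of -1.41.

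Between genes, levels can be compared only per length. On the rlog value minus log2 of the exonic length in kb, Cfd stood highest (10.45 ± 0.54 in wild-type, SD, n = 5), followed by Cd55 (9.47 ± 0.39), C1s1 (7.83 ± 0.31), C3 (7.60 ± 0.31) and Cfp (6.61 ± 0.16). Below them came C1ra (5.66 ± 0.40), C4b (5.23 ± 0.40), C2 (2.96 ± 0.31) and Masp1 (2.84 ± 0.32). Each of the first 5 genes of this order was above the next in all 10 mice, as was C4b above both Masp1 and C2. C1ra was above C4b in 8 of 10 mice, and Masp1 above C2 in 4 of 10, so neither of these neighbours had a fixed order. In wild-type mice the means of C1s1 and C3 lay within 1 SD of each other, and C1s1 exceeded C3 by as little as 0.0028 in 1 mouse. In knock-out mice C1s1 was at 8.05 ± 0.18 and C3 at 6.74 ± 0.16 (SD, n = 5). The plot of length-scaled levels shows both genotypes. The exonic length counts all annotated exons of a gene, which for Masp1 (9.83 kb) and Cd55 (4.85 kb) come from several transcripts, and a longer length than the one in use lowers the level.

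**Figure D3:**
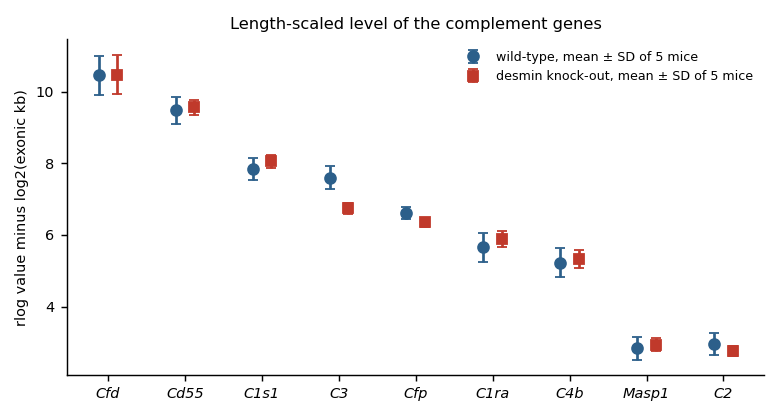
Length-scaled level (rlog value minus log2 of exonic kb, vertical axis) of each complement gene as mean ± SD of 5 wild-type (blue circles) and 5 desmin knock-out mice (red squares). C3 is the one gene whose symbols stand clearly apart, at 7.60 in wild-type and 6.74 in knock-out mice.

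Values of wild-type mice were more spread than those of desmin knock-out mice. The wild-type SD was the larger one for 8 of the 9 complement genes, all but Cfd. This was also true of 82.9% of all tested genes, a share near that of the 9 genes. Without wild-type mouse 3 it held for 7 of the 9 genes and 68.4% of all tested genes.

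To place the 9 genes, a list of 54 complement genes was used, of which 32 were tested. In knock-out muscle 2 of these rose and 3 fell (limma), a share near the 13.7% called in either direction over all tested genes. The median log2 difference was -0.03, compared with -0.0029 for all tested genes. The remaining 22 were under the limit, 5 of them at 0 in all mice. Apart from the 9 genes, 23 were tested, with 2 higher and 2 lower. Among the terminal components, which form the membrane attack complex, Hc, C6, C8a, C8b and C9 had means between -2.21 and 0.50. C7, with a mean of 6.37, was tested and did not pass (log2 difference 0.16, limma adjusted p of 0.562).

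Itgax, a chain of the complement receptor that binds a cleaved form of C3, was higher by 0.38 (SE 0.11, limma adjusted p of 0.0302) and lost the call in 10 of 17 alternatives. All its knock-out values, 4.60 to 4.74, lay above all wild-type values, 4.07 to 4.44, which was so for 7.45% of tested genes. Fcna, which encodes ficolin A, a lectin of the lectin pathway, was lower with a log2 difference of -0.67 (SE 0.18, limma adjusted p of 0.0215) and lost it in 4 of 17. C8g, the γ chain of C8, was lower with a log2 difference of -0.57 (limma adjusted p of 0.0445), and lost it in 9 of 18 alternatives. Without wild-type mouse 3, its highest mouse, the difference of C8g was -0.40 (limma adjusted p of 0.0346). C8g overlaps Fbxw5 on the opposite strand, which had a mean of 11.62 in wild-type mice compared with 6.53 for C8g, and whose log2 difference was itself negative, with a 95% interval from -0.64 to -0.11 (limma adjusted p of 0.0635). The library kit was a stranded one, but whether reads were counted by strand is not given in the sources used here, so reads of this overlap cannot be assigned to one of these genes.

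The classical starters had 0 of 5 tested genes past the test (limma, also 0 at an unadjusted p under 0.05), among them C1qa, a chain of C1q, with a log2 difference of -0.17 (adjusted p = 0.47). The membrane regulators had 0 of 5 (limma, also 0 at an unadjusted p under 0.05). Cr1l, the rodent membrane inhibitor Crry, differed by -0.14 on the log2 scale (limma adjusted p of 0.423). The plot of differences by role shows C3 at its lower end.

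**Figure D4:**
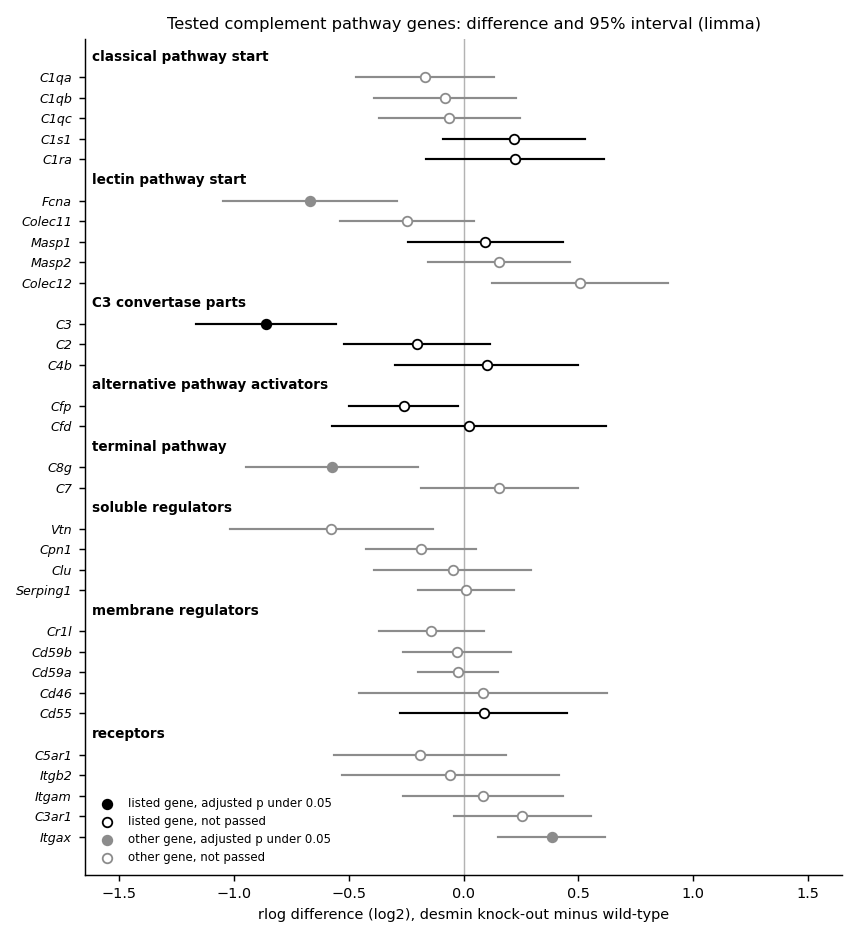
Difference of rlog values (log2, horizontal axis, desmin knock-out minus wild-type) of all but 1 of the 32 tested complement genes, by role, with 95% intervals from limma. Black marks the 9 listed genes, grey the others, and filled symbols an adjusted p under 0.05. C3 at -0.86 has the lowest value of those drawn.

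Cytokines and factors known to induce complement genes were also looked up. Of 12, 7 were tested and 0 passed (limma, 1 at an unadjusted p under 0.05). Among them were Cebpb (log2 difference 0.48, adjusted p = 0.24) and Stat3 (0.18, adjusted p = 0.289). For both, wild-type mouse 3 was the lowest of all mice, at 9.06 and 10.26. The other wild-type mice had 10.24 to 10.58 for Cebpb, so its difference leans on that mouse. The 5 untested ones, Ifng, Il6, Il1b, Tnf and Osm, had means of at most 2.13.

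Markers of several cell types differed between the genotypes beside C3, as the plot of marker lists shows. The counts below stand against 5.99% lower and 7.7% higher genes over all tested. Endothelial markers were lower for 5 of 8 genes, among them Vwf (log2 difference -0.62), Cdh5 (-0.52) and Pecam1 (-0.49). Their summed level, taken as above, ranged from 12.08 to 12.450 in desmin knock-out and from 12.454 to 12.81 in wild-type mice, so the genotypes nearly touched. None of the 8 was under the limit. Of 5 erythroid markers 2 were lower, Alas2 (-1.0) and Hbb-bs (-0.74), and the third by adjusted p was Hbb-bt (-0.79, limma adjusted p of 0.0568). Their summed level ranged from 11.49 to 12.09 in knock-out and from 12.00 to 13.37 in wild-type mice. Of 3 tested neutrophil markers 2 were lower, S100a9 (-1.18) and Mmp9 (-0.63), while S100a8 had a difference of 0.02 (limma adjusted p of 0.959). The summed level of all 8 neutrophil markers was between 5.48 and 5.88 in knock-out and between 5.97 and 6.21 in wild-type mice. This sum includes S100a9 and Mmp9, as the sum of each list includes its changed genes, and none of these sums is a separate result. Of the 5 untested markers, Mmp8 went the other way, with 2.01 to 2.43 in knock-out and 1.77 to 1.88 in wild-type mice. Cxcr2 had a mean of -0.42, and its highest knock-out value of -0.468 lay barely under the lowest wild-type value of -0.467. At this low level such a gap is not read as a change. Ly6g, a defining marker, had a mean of -1.42. Of 10 muscle fiber markers, Actn3 (-0.97) and Myh4 (-0.71) were lower and Myh2 (0.77) was higher, and the summed level was between 22.29 and 22.52 in knock-out and between 22.56 and 23.49 in wild-type mice. The part of these cells in the C3 value was not tested.

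The remaining lists held no marker that was lower at an adjusted p under 0.05. Fibro-adipogenic progenitor and fibroblast markers were higher for 4 of 10 genes, namely Lum (0.99), Col1a1 (0.50), Col3a1 (0.52) and Mfap5 (0.38). Their summed level was between 14.89 and 15.36 in knock-out and between 14.36 and 15.38 in wild-type mice. Of 11 macrophage and monocyte markers 0 passed (limma, with 2 higher and 0 lower at an unadjusted p under 0.05). The smallest adjusted p values of this list were those of Cx3cr1 (0.43, adjusted p = 0.0566), Ms4a7 (0.30, adjusted p = 0.163) and Csf1r (-0.18, adjusted p = 0.352). The mean of the list was between 6.08 and 6.48 in knock-out and between 5.96 and 6.35 in wild-type mice. Of 6 hepatocyte markers 4 were at 0 in all mice, Alb had a mean of 1.81 and Apoa1 of -1.49, so liver transcripts were at or near 0 beside a mean C3 value of 9.53. Of 9 lymphocyte markers only Ptprc was tested (0.10, limma adjusted p of 0.795).

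**Figure D5:**
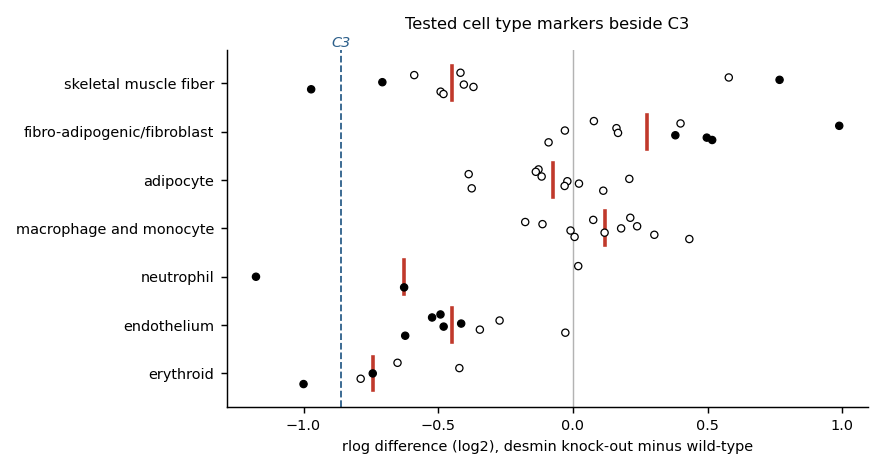
Difference of rlog values (log2, horizontal axis, desmin knock-out minus wild-type) of each tested marker (points, filled at an adjusted p under 0.05 from limma) by cell type, with the median of each list as a red bar and the C3 difference of -0.86 as a dashed line. Medians of the erythroid (-0.74), neutrophil (-0.63), muscle fiber (-0.45), endothelial (-0.45) and adipocyte (-0.07) lists lie on the side of C3, those of the fibroblast (0.27) and macrophage (0.12) lists on the other.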

How the data were processed

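RNA of gastrocnemius muscle (by the study's discussion, with plantaris) of 5 desmin knock-out and 5 wild-type mice was sequenced from stranded mRNA libraries. The submitters' processing notes name cutadapt 2.5, STAR 2.5.4a, Subread 1.6.1 with featureCounts, DESeq2 and GRCm38. The authors deposited rlog values, a log2 scale, in 1 table with 1 column for each mouse, and the settings of the transformation are not given in the sources used here. Counts were not used, so depth and counting error are unknown. Symbols, positions and exonic lengths came from GENCODE M21 (GRCm38), which matched 54165 of 54232 genes.

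Genotypes were compared two-sided in limma 3.58.1 (R 4.3.3, trended prior variance) over the 14289 genes whose mean reached log2(10), with p-values adjusted by Benjamini-Hochberg over all of these, and the script was tested on simulated data. The 9 genes, the lists and the rule for named genes were chosen with earlier results of these data known. The rule named Des, the 9 genes and their copies, each changed gene of the complement list or, in a role without one, its most abundant other gene, up to 3 genes of each marker list by adjusted p, and the 3 profiles nearest to each changed member. Alternatives were other limits on expression, sample weights, an untrended prior, centring on the median, quantile normalization, the mouse number as a block, a Y-linked covariate, an adjusted p under 0.01 and each mouse left out in turn. Some results of the complement and inducer lists are counted but not reported by name here, and 1 tested complement gene is not drawn.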

Additional observations from a re-analysis of the deposited data

Results flagged for a closer look

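In each genotype, the gap from the highest or lowest mouse to the next was divided by the range of all 5 mice. A share above 0.71 was flagged. This was done for the 9 complement genes, Des and the 4 other complement genes that changed. Of these 28 groups, 3 had a mouse far from the others, where chance gives about 1.4. C4b was far lower in wild-type mouse 5 (7.04) than in the other wild-type mice. Wild-type mouse 3 was far above the others for Des (17.74) and for C8g (7.21).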

How the results depend on the processing

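C3 stayed lower at an adjusted p under 0.05 in every alternative in which it was fitted, and 0 of the 9 genes were higher in any. With sample weights, 2 members were lower in place of 1, the second being Cfp. Sign changes were seen in 12 fits of 4 genes, none of which passed the test. They were C4b with sample weights (-0.023), without knock-out mouse 2 (-0.002) and without wild-type mouse 5 (-0.073), Cd55 with sample weights (-0.037), with the Y-linked covariate (-0.145) and without wild-type mouse 3 (-0.069), Masp1 without wild-type mouse 4 (-0.031), and Cfd with median centring (-0.020), without knock-out mice 2 (-0.095) and 3 (-0.136) and without wild-type mice 2 (-0.037) and 5 (-0.173). With 1 mouse left out these genes reached up to 0.175 (C4b), 0.198 (Cfd), 0.178 (Cd55) and 0.157 (Masp1). Over all tested genes, 1100 were higher and 856 lower, with sample weights 2093 and 2127, at an adjusted p under 0.01 623 and 371, and with 1 mouse left out 833 to 1335 and 560 to 1161. Knock-out mouse 5 gave the lowest number of lower genes. In the complement list, 2 higher and 3 lower genes became 0 and 1 without a limit on expression, 0 and 1 at an adjusted p under 0.01, and 1 to 3 and 1 to 4 with 1 mouse left out. The number of higher genes was 1 with a limit of log2(50), quantile normalization or the Y-linked covariate, and with sample weights 6 genes were lower. With the replicate block 1 gene was higher, and 913 and 666 of all genes were higher and lower. Mouse numbers did not pair the samples, since correlations of same-numbered mice lay between -0.22 and 0.067 and 0 of 10 mice correlated best with their own number. Of the 8 genes that did not pass, Cfd had the widest 95% interval, from -0.57 to 0.62. With 5 mice a group, differences inside that interval were not excluded for Cfd, and not passing does not show an absence of change. The causes of these changes were not tested.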
